A study of Homo sapiens with 8 samples.

Results

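The comparison described here set 2 histone deacetylase (HDAC) inhibitors directly against each other in MP38, a BAP1-mutant uveal melanoma (UM) cell line: romidepsin, which is selective for class I HDACs, and quisinostat, which inhibits HDACs of several classes. It used 4 of the 8 bulk RNA-sequencing libraries of the series, 2 from cells given 40 nM romidepsin and 2 from cells given 40 nM quisinostat, and all 15085 genes that passed a filter on low counts out of 35238 gene symbols. Both drugs were applied for 24 h with DMSO at 0.1%, and each library came from a well of its own. The 2 control libraries, from cells given 0.1% DMSO alone for 24 h, told on which side of the untreated level each drug lay. These 2 and the 2 libraries with 1200 nM mivebresib, a BET bromodomain inhibitor, also entered the filter, the scaling and the estimate of the spread. They therefore bear on which genes were tested and on every p-value of the direct comparison. All wells belonged to the same line, so n = 2 per group is a number of wells, and p-values measure the spread between wells of this line. The single dose was the same in nM for both drugs and was not matched for potency, so selectivity for a class of HDAC and strength of inhibition cannot be told apart.

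HDACs remove acetyl groups from lysines of histones and other proteins. Class I enzymes (HDAC1, HDAC2, HDAC3 and HDAC8) are mostly nuclear, and HDAC1 to HDAC3 act inside the NuRD, Sin3, CoREST and NCoR co-repressor complexes that close chromatin at silenced genes. Class II enzymes shuttle between nucleus and cytoplasm, and HDAC6 among them deacetylates tubulin and HSP90. Romidepsin is a cyclic depsipeptide whose thiol, freed inside the cell, binds the zinc ion of the active site, whereas quisinostat binds that zinc through a hydroxamate. HDAC inhibition is known to open silenced genes, neuronal genes under the REST repressor among them, and to slow the cell cycle. UM cells derive from uveal melanocytes, neural crest cells that carry the pigment programme driven by MITF and SOX10, and their growth signal usually comes from Gq proteins through protein kinase C and the MAPK cascade.

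The 4 libraries held 28787073 to 29150495 counts, so depth hardly differed between the drugs. A gene with at least 1 count was found for 18425 and 18653 symbols with romidepsin and for 19483 and 19561 with quisinostat. Over all tested genes, in log2 of counts per 1000000 counts (CPM), replicates lay a Euclidean distance of 44.4 apart for romidepsin and 36.8 for quisinostat, while libraries of the 2 drugs lay 90.5 to 92.0 apart. The 2 control libraries lay further from each other, at 57.6, and their counts differed by a chi-square of 58.2 per degree of freedom, against 9.53 for romidepsin and 9.79 for quisinostat. The distance to the control libraries was 82.7 to 94.2 for romidepsin and 138 to 143 for quisinostat. The melanocytic genes used to check the label summed to 8559 and 8006 CPM with romidepsin and to 6720 and 7627 CPM with quisinostat, and all but DCT were above the filter. Summed leukocyte markers stayed at 0.413 to 0.899 CPM in the 4 libraries. Fibroblast markers summed to 24.7 and 20.2 CPM with romidepsin and to 38.8 and 37.9 CPM with quisinostat, endothelial markers to 3.72 and 3.12 against 5.64 and 6.39 CPM, and erythroid markers to 2.41 and 2.30 against 5.64 and 5.07 CPM. Keratinocyte markers summed to 26.9 and 34.0 against 42.6 and 45.2 CPM, and markers of the retinal pigment epithelium and photoreceptors to 20.7 and 20.3 against 16.8 and 17.1 CPM, and the part of other cells in the results was not tested. In bulk RNA, fewer cells that express a gene and less of its RNA per cell cannot be told apart.

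More genes were higher than lower with quisinostat in the direct comparison. With edgeR's quasi-likelihood test and Benjamini-Hochberg adjustment, 816 genes (5.41% of those tested) were higher with quisinostat under the stricter call, which asks for an adjusted p below 0.05 together with a log2 difference beyond 1.5, and 27 genes (0.179%) were lower. By the adjusted p alone, 3167 genes (21.0%) were higher with quisinostat and 2200 (14.6%) lower, so 59.0% of the genes called were higher. That split depended on the scaling, and with library size alone in place of TMM factors 76.8% of the called genes were higher (4307 against 1298). The counts also depended on each library, and without any 1 of the 4 drug libraries they fell to between 1686 and 1847 higher and between 1077 and 1204 lower. The median difference over all tested genes was 0.06 on the log2 scale with TMM factors and 0.19 with library size alone, and all differences below are relative to the first. Every difference is given as quisinostat minus romidepsin on the log2 scale, and CPM values are TMM-normalised.

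Expression level set apart the genes of the 2 directions. Of the 2762 tested genes with a mean control level of at most 1 CPM, 24.4% were higher with quisinostat past both thresholds and 0.217% lower, and the median difference was 0.75. Of the 2448 genes over 100 CPM in the control, none was higher past both thresholds, 3.02% were higher by the adjusted p alone and 34.0% were lower, with a median difference of -0.18. Between 10 and 100 CPM, 16.2% of 6745 genes were higher and 18.0% lower by the adjusted p alone. A gene under the filter's level in the control entered the test only through a treated group where it was higher, so the shares among low genes are set in part by the filter. Of the 2762 genes, 1691 also passed the filter when it read only the control and mivebresib libraries, a choice made after the data were seen, and 16.6% of these were higher past both thresholds and 0.177% lower, with a median difference of 0.53. Over all levels 14014 genes passed in that way, of which 424 (3.03%) were higher and 24 (0.171%) lower past both thresholds.

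**Figure D1:**
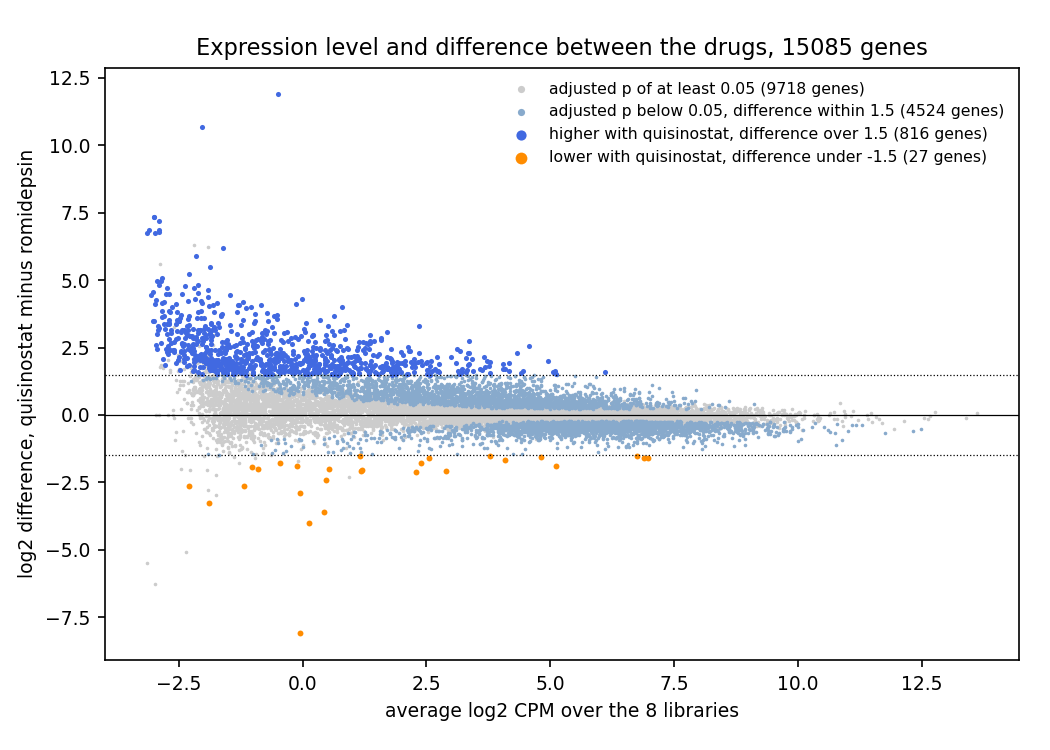
Difference between the drugs (log2, quisinostat minus romidepsin, y axis) against the average log2 CPM over the 8 libraries (x axis), with 1 point per tested gene, grey where the gene was not called, pale blue where it was called by the adjusted p alone, and royal blue (higher) or orange (lower) where it passed both thresholds, whose folds are the dotted lines. The 816 genes higher with quisinostat gather at low expression, and the 27 lower genes are few at every level.

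The position of each drug against the control is described next. Both comparisons with the control share the same 2 control libraries, so their values are given side by side only. The called genes were also chosen on the same drug libraries that are set against the control here. Shares raised or lowered with quisinostat therefore follow in part from that choice. Of the 816 genes higher with quisinostat, 662 had a mean control level below both drugs, 151 lay between the drugs and 3 above both. Quisinostat had raised 782 of them above the control at an adjusted p below 0.05, a call that 4231 genes (28.0% of all tested) passed. Romidepsin had raised 322 and lowered 10, against 2293 raised (15.2%) and 2377 lowered (15.8%) among all genes. Their median log2 change from the control was 1.10 with romidepsin and 3.43 with quisinostat, and their median level was 0.216 CPM in the control, 0.447 with romidepsin and 2.18 with quisinostat. In 103 of the 816 both romidepsin libraries held at most 3 counts, and taking 3 counts per library as the floor, the median of the 103 lower bounds was 5.23-fold. Of the 27 lower genes, quisinostat had lowered 22 below the control, a call that 3793 genes (25.1%) passed, and romidepsin had lowered 8 and raised 2. The groups of 2 libraries did not overlap for any of the 816 or 27 genes. The same held for 10242 of the 14242 tested genes that did not pass both thresholds.

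Among genes whose log2 CPM averaged at least 3, 40 were higher and 7 lower with quisinostat past both thresholds, and the 10 with the largest differences are described first. BEX5, an X-linked brain-expressed gene of a family of small adaptor proteins (chrX:102153708-102156057, minus strand, GRCh38), was at 7.25 and 7.78 CPM with romidepsin and 53.1 and 48.0 CPM with quisinostat. The control libraries had 2.55 and 2.56 CPM, and the difference was 2.75 ± 0.10 (SE) (adjusted p = 8.24e-06, edgeR). PEG10, an imprinted gene derived from a retrotransposon, went from 26.1 and 21.6 to 141 and 142 CPM, a difference of 2.57 ± 0.14 (SE). ABAT, which breaks down the neurotransmitter GABA, was at 7.49 and 6.23 CPM with romidepsin and 39.1 and 36.5 CPM with quisinostat, with a difference of 2.46 ± 0.13 (SE). Both of these overlap an annotated gene on the opposite strand, as do NGFR, DNER, ALDH6A1, UNC5B, LZTFL1, ABCB5, CITED1, MYLK and TAGLN below. Other genes named later do so as well, and among them CDK2 overlaps PMEL and KRT8 overlaps KRT18. Whether the counting used strand is not given in the sources used here.

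SYT7, a calcium sensor of vesicle fusion (chr11:61515313-61581148, minus strand), was at 6.63 and 6.89 CPM with romidepsin and 33.5 and 32.4 CPM with quisinostat, against 3.37 and 4.53 CPM in the control, a difference of 2.28 ± 0.13 (SE) (adjusted p = 2.88e-05, edgeR). NGFR, the low-affinity neurotrophin receptor that marks neural crest cells, was at 6.49 and 6.68 CPM with romidepsin and 31.9 and 35.6 CPM with quisinostat, a difference of 2.36. DNER, a neuronal ligand of Notch, was at 15.5 and 12.8 CPM with romidepsin and 66.7 and 72.8 CPM with quisinostat, a difference of 2.30. LYPD6, a membrane-anchored modulator of nicotinic receptors and Wnt signalling, was at 8.62 and 8.30 CPM with romidepsin and 43.2 and 39.5 CPM with quisinostat, a difference of 2.29. In these cases both drugs lay above the control and quisinostat lay 4.87 to 5.12 times above romidepsin. For ALDH6A1, a mitochondrial enzyme of valine breakdown, romidepsin did not move the level detectably: the control had 7.30 and 7.74 CPM, romidepsin 6.39 and 7.96 and quisinostat 31.4 and 32.2, a difference of 2.15. UNC5B, a netrin receptor, and LZTFL1, a regulator of ciliary trafficking, showed the same arrangement, with differences of 2.11 and 2.08 and adjusted p-values for romidepsin against the control of 0.10 and 0.91 (edgeR).

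Of the 7 genes lower with quisinostat at that level, 5 are described. FOS, a subunit of the AP-1 transcription factor (chr14:75278774-75282230, plus strand), had 64.3 and 71.2 CPM with romidepsin and 17.8 and 18.3 CPM with quisinostat, and the control had 56.5 and 60.3 CPM. Its difference was -1.91 ± 0.10 (SE) (adjusted p = 2.61e-05, edgeR), a 3.75-fold lower level. Against the control, FOS passed the test with quisinostat (adjusted p = 4.47e-06, edgeR) and not with romidepsin (adjusted p = 0.11). ABCB5, a drug efflux transporter found in melanocytic cells, was at 44.6 and 41.6 CPM with romidepsin and 14.0 and 13.3 CPM with quisinostat, a difference of -1.66 ± 0.10 (SE).

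CITED1, a transcriptional co-activator first found in pigment cells, was at 44.2 and 50.9 CPM with romidepsin and 17.6 and 15.0 CPM with quisinostat, a difference of -1.54. MYLK, the myosin light chain kinase, had 202 and 214 CPM with romidepsin and 74.7 and 70.7 CPM with quisinostat, a difference of -1.52, and TAGLN, an actin-binding protein of contractile cells, 18.4 and 19.4 CPM with romidepsin and 6.87 and 6.40 CPM with quisinostat, a difference of -1.51. For these 3, both drugs lay below the control and quisinostat lay lower.

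**Figure D2:**
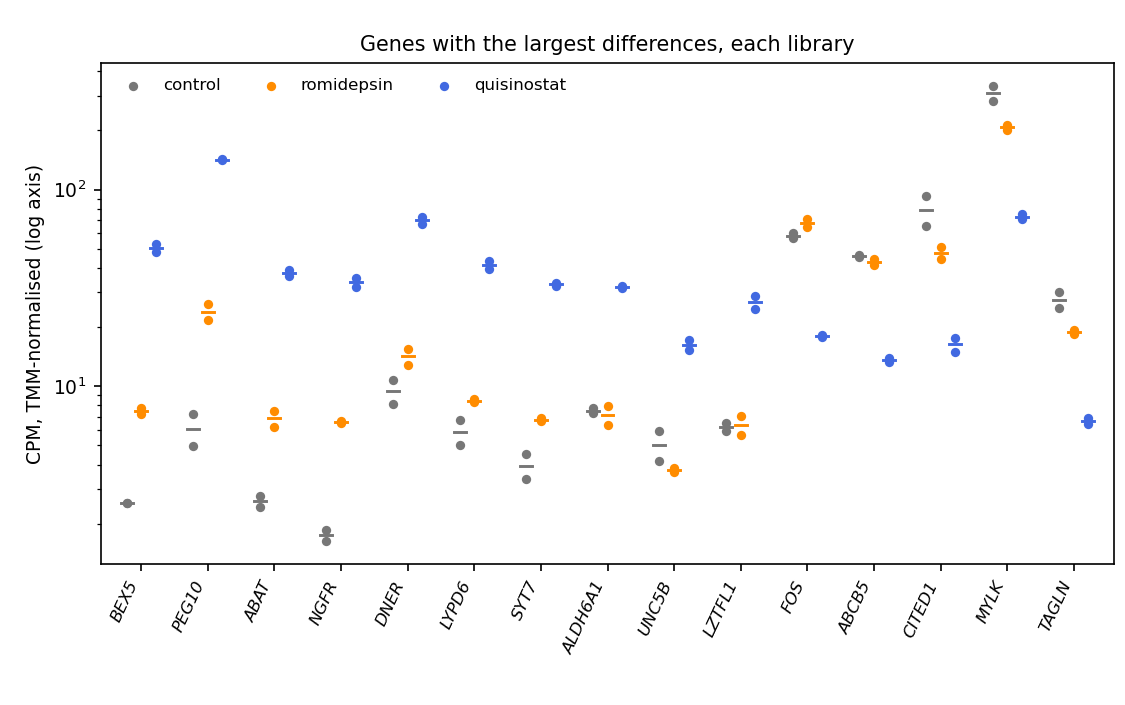
CPM (log y axis) of the leading genes (x axis) in the control (grey), romidepsin (orange) and quisinostat (blue) libraries, with 1 point per library and a line at each group's mean. For the 10 genes on the left the quisinostat points lie above both romidepsin points, and for the 5 on the right they lie below.

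Of the 15085 tested genes, 115 were called in the direct comparison and had passed the test against the control in opposite directions. Of these, 42 were higher and 73 lower with quisinostat. ZMYND10, a factor that assembles ciliary dynein arms, fell with romidepsin from 0.779 and 0.986 CPM to 0.412 and 0.482 CPM and rose with quisinostat to 2.56 and 2.10 CPM. DEPTOR, an inhibitor of mTOR, was at 3.90 and 2.96 CPM in the control, 2.16 and 2.07 with romidepsin and 8.61 and 6.81 with quisinostat, a difference of 1.86. AC009014.3, known by a clone name, OSCP1 and CCDC189 had differences of 3.995, 2.05 and 1.83. The falls with romidepsin passed narrowly for AC009014.3, ZMYND10, CCDC189 and DEPTOR, at adjusted p-values of 0.0451, 0.0450, 0.0393 and 0.0313 (edgeR). For OSCP1 the value was 0.00821 (edgeR). AC009014.3 was near the floor with romidepsin, at 0.137 and 0.103 CPM. In the other direction, SREBF1, the transcription factor of fatty acid synthesis, rose with romidepsin from 47.0 and 61.8 to 99.4 and 85.9 CPM and fell with quisinostat to 33.7 and 37.6 CPM, a difference of -1.38. NEDD4L, a ubiquitin ligase of ion channels, was at 256 and 291 CPM in the control, 452 and 452 CPM with romidepsin and 180.4 and 195 CPM with quisinostat, a difference of -1.27 ± 0.09 (SE). PDGFB, a growth factor, BIRC3, an inhibitor of apoptosis, and the chemokine receptor CCR10 had differences of -1.24, -1.24 and -1.51.

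None of the 11 HDAC genes passed both thresholds, and the median difference was -0.08 for the 4 of class I, or 0.05 with library size alone, and 0.04 for the 7 of classes II and IV. Among class I, HDAC2 was lower with quisinostat, at 161 and 175 CPM with romidepsin and 142 and 141 CPM with quisinostat, a difference of -0.25 with a 95% interval of -0.43 to -0.06 (adjusted p = 0.0417, edgeR), a call that was lost with library size alone (adjusted p = 0.264, edgeR). For HDAC1, HDAC3 and HDAC8 the test was not passed and the intervals were -0.33 to 0.05, -0.27 to 0.21 and -0.09 to 0.42, so differences of 0.5 or more lie outside all 3. HDAC6, the tubulin deacetylase, was the HDAC gene with the largest difference: it was at 19.4 and 22.9 CPM in the control, 20.6 and 22.5 CPM with romidepsin and 30.3 and 32.2 CPM with quisinostat, a difference of 0.54 ± 0.10 (SE) (adjusted p = 0.00521, edgeR). HDAC11, the class IV enzyme, was also higher with quisinostat, by 0.42, and HDAC4 and HDAC7, class II enzymes that bind MEF2 factors, were lower, with differences of -0.41 and -0.26. The call of HDAC11 was lost with DESeq2 (adjusted p = 0.0653), and those of HDAC4 and HDAC7 with library size alone (adjusted p = 0.116 and 0.214, edgeR). HDAC5, HDAC9 and HDAC10 were not called, with intervals of -0.23 to 0.12, -0.16 to 0.23 and -0.10 to 0.54. These are transcript levels and say nothing of enzyme activity.

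**Figure D3:**
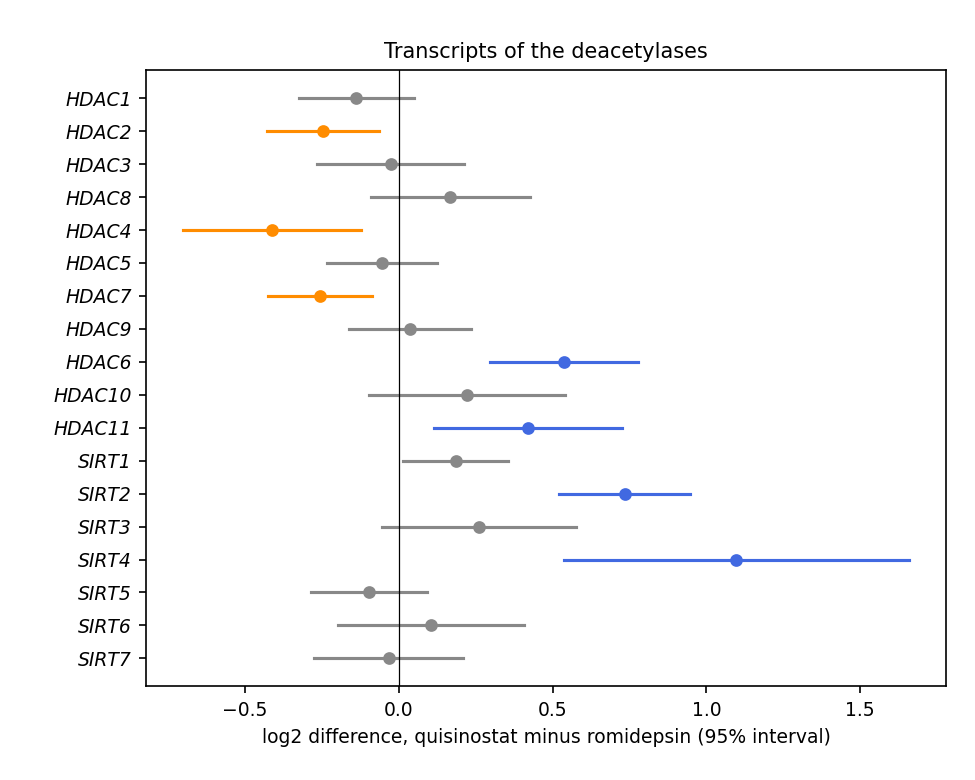
Difference in transcript level between the drugs (log2, quisinostat minus romidepsin, x axis) with its 95% interval for each of the 11 HDAC and 7 sirtuin genes (y axis), in blue (higher) or orange (lower) where the adjusted p was below 0.05 and in grey otherwise. HDAC6, HDAC11, SIRT2 and SIRT4 lie to the right of 0, and HDAC2, HDAC4 and HDAC7 to the left.

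The NAD-dependent sirtuins, which neither drug class targets, held 2 called genes of 7 (median difference 0.19), both higher, against 21.0% of all genes: SIRT2, a cytoplasmic tubulin deacetylase, at 30.6 and 32.3 CPM with romidepsin and 55.0 and 49.5 CPM with quisinostat (difference 0.73), and SIRT4, a mitochondrial member, at 0.824 and 0.654 CPM with romidepsin and 1.71 and 1.46 CPM with quisinostat (difference 1.10). Of 29 genes for subunits of HDAC co-repressor complexes, 5 were higher and 9 lower with quisinostat, against 21.0% and 14.6% of all genes, and the median difference was -0.09, or 0.03 with library size alone. The lower ones included CHD3 and GATAD2A of NuRD, which went from 173 and 173 and 169.5 and 177 CPM with romidepsin to 108 and 112 and 112 and 114 CPM with quisinostat, each pair being the libraries of 1 gene, and the nuclear receptor co-repressor NCOR1, with a difference of -0.47. KDM1A, the lysine demethylase of CoREST, rose with romidepsin from 115 and 114 to 149.7 and 151 CPM and was at 99.7 and 105 CPM with quisinostat, a difference of -0.56 ± 0.07 (SE). CHD5, a NuRD helicase of neurons, was the strongest higher one, at 7.59 and 7.89 CPM with romidepsin and 16.0 and 16.0 CPM with quisinostat, a difference of 1.05, and REST, the repressor of neuronal genes, was higher by 0.32 (47.9 and 45.6 and 57.3 and 59.5 CPM).

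Of 15 genes for acetyltransferases and bromodomain readers, 2 were higher and 5 lower, against 21.0% and 14.6% of all genes, with a median difference of -0.07 that turned to 0.06 with library size alone. Of the 12 members between 10 and 100 CPM in the control 3 were lower, against 18.0% of all genes at that level. BRD2, a BET reader, was at 178 and 174 CPM in the control, 164 and 169 CPM with romidepsin and 112 and 108 CPM with quisinostat, a difference of -0.60. The co-activator NCOA3 and the acetyltransferase CREBBP were also lower, with differences of -0.68 and -0.33. KAT6B was higher with quisinostat by 0.62, with both drugs below the control.

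Neuronal genes were prominent among those higher with quisinostat. Of 46 tested genes of synaptic vesicles and synapses, 30 were higher and 1 lower by the adjusted p alone, against 21.0% and 14.6% of all genes. Past both thresholds 20 were higher, against 5.41%, and the median difference was 1.19 against 0.06 over all genes. SNAP25, a membrane SNARE of vesicle fusion, was at 0.531 and 0.548 CPM in the control, 1.06 and 0.930 CPM with romidepsin and 7.95 and 7.77 CPM with quisinostat, a difference of 2.97 ± 0.19 (SE) (adjusted p = 4.96e-05, edgeR). SYP, the vesicle protein synaptophysin, had 1.48 and 1.58 CPM with romidepsin and 11.1 and 11.4 CPM with quisinostat, and SLC17A7, a vesicular glutamate transporter, 2.03 and 2.51 CPM with romidepsin and 16.0 and 15.1 CPM with quisinostat, with differences of 2.87 and 2.77. UNC13A, which primes vesicles and was already at 9.85 and 12.7 CPM in the control, reached 41.1 and 37.1 CPM with romidepsin and 116 and 123 with quisinostat, a difference of 1.61.

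Many synaptic genes were low before treatment, and 22 of the 46 had at most 1 CPM in the control. Of those 22, 18 were higher, against 33.9% of all genes at that level, but some genes this low entered the test only through treated libraries. Of the 12 that passed the filter on the control and mivebresib libraries alone, 10 were higher, against 28.4% of all such genes. Of the 16 between 1 and 10 CPM, 8 were higher, again against 33.9%. In the whole list 36 genes passed in that way, and 22 were higher and 1 lower, against 19.4% and 15.7% of all genes that did. Past both thresholds 13 of the 36 were higher and none lower, against 3.03% and 0.171% of all genes that passed in that way. The median difference of the 36 was 0.80. The 20 of 46 past both thresholds in the whole list therefore rest in part on genes that only treated libraries brought into the test. Not every synaptic gene was higher with quisinostat. SV2A, a vesicle glycoprotein, had risen with both, from 5.88 and 9.46 CPM to 37.0 and 32.0 CPM with romidepsin and 33.8 and 40.7 CPM with quisinostat, a difference of 0.11 with an interval of -0.30 to 0.52.

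Voltage-gated ion channels, which set the excitability of neurons, were also higher with quisinostat. Of 42 tested channel genes, 30 were higher and none lower by the adjusted p alone, against 21.0% and 14.6% of all genes. Past both thresholds 17 were higher, against 5.41%, and the median difference was 1.23. KCNQ3, a subunit of the M-type potassium channel that damps firing, was at 0.354 and 0.292 CPM in the control, 1.75 and 1.27 CPM with romidepsin and 17.9 and 20.3 CPM with quisinostat, a difference of 3.65 ± 0.17 (SE) (adjusted p = 2.61e-05, edgeR). CACNA1G, a T-type calcium channel, had 4.50 and 5.17 CPM with romidepsin and 24.1 and 26.1 CPM with quisinostat, and CACNA1B, the N-type channel of nerve terminals, 2.71 and 2.45 CPM with romidepsin and 12.2 and 14.9 CPM with quisinostat, with differences of 2.37 and 2.39. HCN2, a pacemaker channel, was at 14.9 and 15.8 CPM with romidepsin and 36.2 and 40.2 CPM with quisinostat, a difference of 1.31. Of the 17 channel genes with at most 1 CPM in the control, 13 were higher, and of the 20 between 1 and 10 CPM, 14 were. At each of these levels 33.9% of all genes were higher. With the filter read on the control and mivebresib libraries alone, 34 channel genes were left, of which 23 were higher and none lower. Their median difference was 1.19, and 19.4% of all genes left in that way were higher. Past both thresholds 10 of the 34 were higher, against 3.03% of all genes left in that way. Of the 9 left with at most 1 CPM in the control, 6 were higher, against 28.4% of all such genes.

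Cytoskeletal genes of neurons reached higher levels. Of 24 tested, 17 were higher and none lower, against 21.0% and 14.6% of all genes, with a median difference of 1.05. Past both thresholds 5 were higher, against 5.41%. With the filter read on the control and mivebresib libraries alone, 21 were left. Of these, 14 were higher and none lower, 3 past both thresholds, with a median difference of 0.96. Of all genes left in that way 19.4% were higher and 15.7% lower, and 3.03% were higher past both thresholds. KIF5C, a kinesin heavy chain of axonal transport, was at 2.16 and 3.14 CPM in the control, 50.2 and 45.5 CPM with romidepsin and 184 and 199 CPM with quisinostat, a difference of 2.001 ± 0.12 (SE). MAP2, a dendritic microtubule protein, had 43.8 and 39.1 CPM with romidepsin and 91.4 and 92.3 CPM with quisinostat, and MAPT, the axonal protein tau, 13.4 and 11.8 CPM with romidepsin and 31.8 and 32.7 CPM with quisinostat, with differences of 1.15 and 1.36. NEFL, the light neurofilament subunit, had 0.721 and 1.03 CPM with romidepsin and 6.05 and 5.35 CPM with quisinostat, a difference of 2.69. TUBB3, the neuronal beta-tubulin, showed a fall with romidepsin, from 80.5 and 76.3 to 45.9 and 47.6 CPM, and 96.7 and 85.1 CPM with quisinostat, a difference of 0.96. INA, a neuronal intermediate filament, had risen with both drugs and was not called in the direct test, at 124 and 121 CPM with romidepsin and 136 and 135 CPM with quisinostat (interval -0.05 to 0.34).

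Genes of the neural crest and Schwann cells divided, with 8 higher and 3 lower of 16 tested (median 0.41). Of all genes, 21.0% were higher and 14.6% lower. NCAM1, the neural cell adhesion molecule, was at 0.567 and 0.621 CPM in the control, 3.50 and 3.58 CPM with romidepsin and 21.1 and 24.1 CPM with quisinostat, a difference of 2.67 ± 0.14 (SE). ERBB3, the neuregulin receptor, had 5.46 and 4.92 CPM with romidepsin and 8.67 and 9.74 CPM with quisinostat, and SOX9, a crest transcription factor, 3.67 and 3.75 CPM with romidepsin and 5.67 and 4.94 CPM with quisinostat, with differences of 0.83 and 0.51. Among the lower members were the myelin genes PMP22, at 88.4 and 82.1 CPM with romidepsin and 52.4 and 50.7 CPM with quisinostat, and MBP, with a difference of -0.23.

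**Figure D4:**
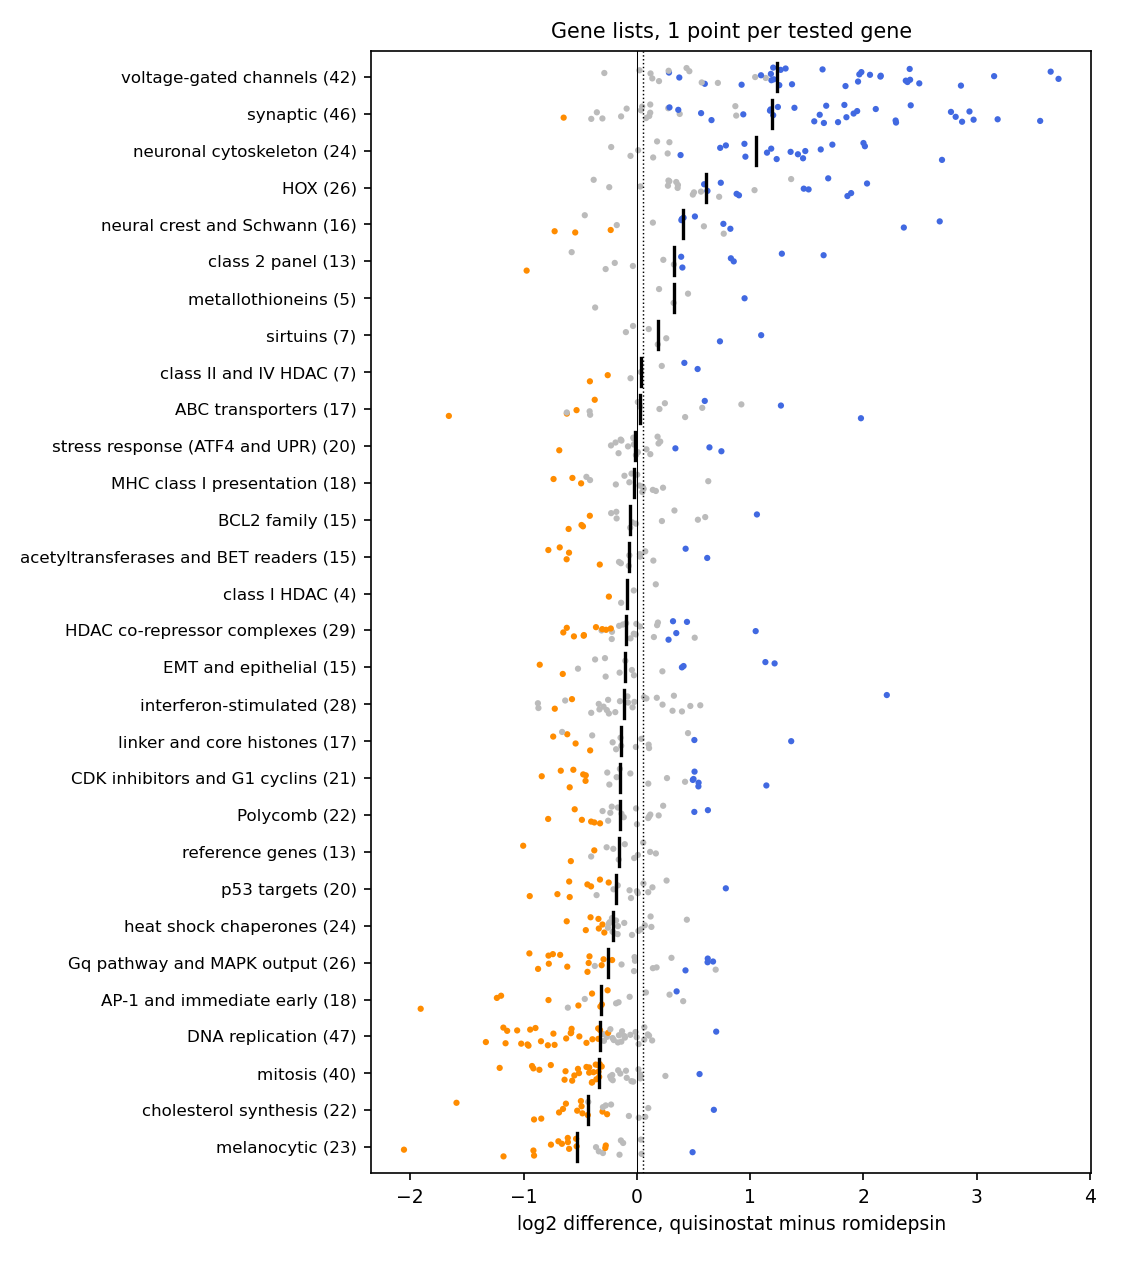
Difference between the drugs (log2, quisinostat minus romidepsin, x axis) for every tested member of each gene list (y axis), 1 point per gene, blue (higher) or orange (lower) where called by the adjusted p and grey otherwise, with a bar at the list's median, the number of tested members after its name and a dotted line at the median of all genes. Synaptic, channel and neuronal cytoskeleton genes have medians of 1.05 to 1.23, and the melanocytic, replication, mitosis and cholesterol lists have medians of -0.53 to -0.32.

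HOX genes, the developmental regulators that Polycomb keeps silent, were mostly low. Of 39, 26 passed the filter, and the median difference was 0.61. With quisinostat 11 were higher and none lower, against 21.0% and 14.6% of all genes. HOXB9 was at 4.33 and 4.89 CPM with romidepsin and 13.5 and 12.9 CPM with quisinostat, HOXB13 at 6.18 and 7.16 CPM with romidepsin and 19.4 and 17.6 CPM with quisinostat and HOXA13 at 6.97 and 7.47 CPM with romidepsin and 13.2 and 13.4 CPM with quisinostat, with differences of 1.52, 1.47 and 0.88. HOXA7 had no count in the control and 0.653 and 0.689 CPM with romidepsin and 2.63 and 2.26 with quisinostat. Of the 12 HOX genes with at most 1 CPM in the control, 5 were higher, near the share of 33.9% for all genes at that level, and 3 of the 12 passed the filter without the drug libraries, of which 1 was higher. Among 22 Polycomb genes 2 were higher and 6 lower (median difference -0.15), and of the 18 between 10 and 100 CPM in the control 5 were lower, against 18.0% of all genes at that level. The lower ones included the PRC2 core: EZH2 (27.6 and 28.997 CPM with romidepsin and 22.6 and 22.6 CPM with quisinostat), SUZ12 and EED, with differences of -0.32, -0.37 and -0.40, and the call of EZH2 was lost with library size alone (adjusted p = 0.086, edgeR). PHF19, a PRC2 accessory factor, fell with both drugs, from 47.7 and 40.7 CPM to 16.9 and 18.1 CPM with romidepsin and 10.2 and 10.1 CPM with quisinostat. BAP1, the deubiquitinase mutated in this line, was at 78.9 and 78.2 CPM with romidepsin and 95.03 and 89.5 CPM with quisinostat and not called (interval 0.05 to 0.41).

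H1F0, the linker histone of differentiated cells and one that HDAC inhibitors often induce, was lower with quisinostat than with romidepsin although both drugs had raised it, at 177 and 166 CPM in the control, 334 and 337 CPM with romidepsin and 258 and 246 CPM with quisinostat, a difference of -0.41 ± 0.08 (SE) (adjusted p = 0.00494, edgeR). Of 17 linker and core histone genes, 2 were higher and 4 lower, against 21.0% and 14.6% of all genes (median difference -0.14). The others among the lower were HIST1H2BK, HIST1H2AC and H2AFX, with differences of -0.74, -0.61 and -0.54. H2AFY2, which encodes a macroH2A, was the strongest higher one, at 0.481 and 0.551 CPM with romidepsin and 1.30 and 1.37 CPM with quisinostat, a difference of 1.36.

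Pigment-cell genes were mostly lower with quisinostat. Of 23 tested melanocytic genes, 14 were lower and 1 higher by the adjusted p alone, against 14.6% and 21.0% of all genes, and the median difference was -0.53. Of the 12 over 100 CPM in the control 7 were lower, against 34.0% of all genes at that level, and of the 8 between 10 and 100 CPM 6 were, against 18.0%. MITF, the master regulator of melanocytes (chr3:69739435-69968337, plus strand, GRCh38), was at 351 and 349 CPM in the control, 293 and 308 CPM with romidepsin and 133 and 134 CPM with quisinostat, a difference of -1.18 ± 0.08 (SE) (adjusted p = 4.96e-05, edgeR). Against the control, MITF had a log2 change of -1.39 with quisinostat (adjusted p = 4.19e-06) and -0.22 with romidepsin (adjusted p = 0.0587). SOX10, the crest factor that acts upstream of MITF, had 149 and 169 CPM with romidepsin and 107 and 114 CPM with quisinostat, a difference of -0.53, and PAX3 a difference of -0.27.

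TRPM1, the melanocytic ion channel whose intron carries a microRNA, was the melanocytic gene with the largest difference: 4.71 and 3.80 CPM in the control, 4.98 and 6.92 CPM with romidepsin and 1.52 and 1.34 CPM with quisinostat, a difference of -2.06 ± 0.30 (SE) that passed both thresholds. MLANA, a melanosomal antigen, had 177 and 197 CPM with romidepsin and 101 and 98.6 CPM with quisinostat, and SLC24A5, a melanosomal cation exchanger, 58.6 and 59.5 CPM with romidepsin and 30.3 and 32.5 CPM with quisinostat, with differences of -0.91 and -0.91. The receptors KIT and EDNRB and the melanosome transport genes MYO5A and MLPH were also lower, with differences of -0.76, -0.66, -0.69 and -0.61. The most abundant pigment genes were not called. TYRP1, a melanin synthesis enzyme, was at 3811 and 3541 CPM with romidepsin and 2748 and 3228 CPM with quisinostat (difference -0.30, interval -0.67 to 0.07), PMEL, the melanosomal fibril protein, at 593 and 520.0 CPM with romidepsin and 471 and 530.3 CPM with quisinostat (interval -0.51 to 0.20) and GPNMB at 1538 and 1407 CPM with romidepsin and 1248 and 1461 CPM with quisinostat (interval -0.52 to 0.28). OCA2, a melanosomal chloride channel, was the 1 member higher with quisinostat, at 35.0 and 29.3 CPM with romidepsin and 42.3 and 48.1 CPM with quisinostat, a difference of 0.49.

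**Figure D5:**
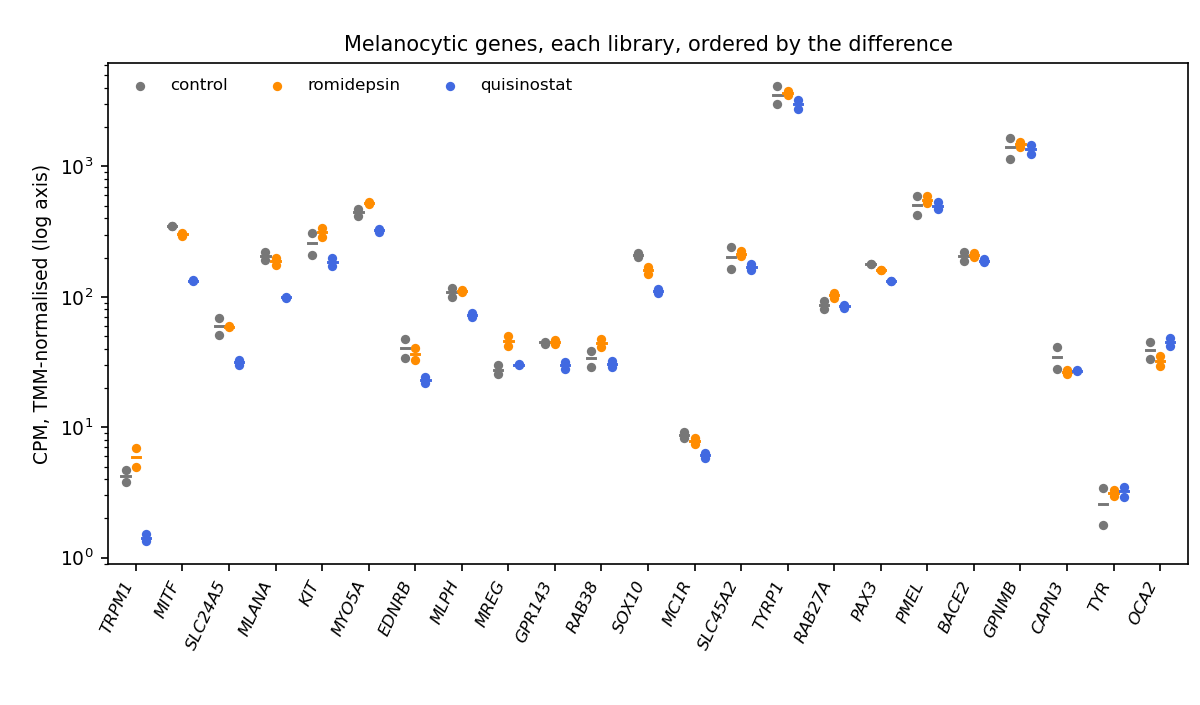
CPM (log y axis) of the melanocytic genes (x axis, ordered by the difference) in the control (grey), romidepsin (orange) and quisinostat (blue) libraries, with 1 point per library and a line at each group's mean. The quisinostat points of MITF, MLANA, SLC24A5 and TRPM1 lie below both romidepsin points, whereas those of PMEL and GPNMB overlap them.

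MITF binds the M-box, whose core is CATGTG, and the promoters of 4 pigment genes are shown because that core was present in members that were lower as well as in members that were not called. The windows run from 250 bases before to 50 after the annotated start in RefSeq (GRCh38.p14), written 5′ to 3′ on the gene's strand, with CATGTG or its reverse complement CACATG in capitals. TRPM1 (chr15:31101676-31101975, minus strand, 1 of its windows) and SLC24A5 (chr15:48120740-48121039, plus strand) were lower, and TYRP1 (chr9:12693135-12693434, plus strand) and TYR (chr11:89177625-89177924, plus strand) were not called.
TRPM1: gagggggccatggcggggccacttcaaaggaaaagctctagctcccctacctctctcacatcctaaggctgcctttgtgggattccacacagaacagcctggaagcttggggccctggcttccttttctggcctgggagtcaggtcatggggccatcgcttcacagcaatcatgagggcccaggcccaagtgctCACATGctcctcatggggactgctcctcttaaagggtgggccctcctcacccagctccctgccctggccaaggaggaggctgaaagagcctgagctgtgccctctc
SLC24A5: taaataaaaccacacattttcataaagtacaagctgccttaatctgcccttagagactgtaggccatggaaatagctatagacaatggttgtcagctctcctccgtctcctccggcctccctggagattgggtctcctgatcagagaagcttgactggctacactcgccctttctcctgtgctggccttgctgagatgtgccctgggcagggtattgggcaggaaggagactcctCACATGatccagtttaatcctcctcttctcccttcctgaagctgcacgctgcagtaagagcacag
TYRP1: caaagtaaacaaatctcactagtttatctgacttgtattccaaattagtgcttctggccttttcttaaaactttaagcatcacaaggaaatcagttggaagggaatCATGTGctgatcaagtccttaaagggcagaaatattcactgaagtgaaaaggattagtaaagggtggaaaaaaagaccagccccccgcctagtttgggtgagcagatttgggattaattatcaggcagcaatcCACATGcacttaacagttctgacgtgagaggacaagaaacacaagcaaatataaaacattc
TYR: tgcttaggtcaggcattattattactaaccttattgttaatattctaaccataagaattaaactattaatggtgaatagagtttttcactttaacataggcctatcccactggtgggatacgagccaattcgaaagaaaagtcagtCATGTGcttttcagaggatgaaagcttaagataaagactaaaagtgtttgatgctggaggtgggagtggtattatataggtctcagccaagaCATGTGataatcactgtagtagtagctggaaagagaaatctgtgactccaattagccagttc

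TYR, the rate-limiting enzyme of melanin synthesis, was low, at 2.95 and 3.31 CPM with romidepsin and 3.51 and 2.93 CPM with quisinostat, and its interval of -0.59 to 0.67 left both directions possible. Read on both strands, CATGTG was in 35.5% of the 31 windows of melanocytic genes, against 11.1% of all 35116 windows and 7.67% of the windows of tested genes. Within the list, 4 of the 12 lower genes that had a window held it and 5 of the 5 genes that were not called. Among the windows of the genes higher with quisinostat past both thresholds the share was 7.68%. It was 15% of the 20 windows of genes lower past both thresholds and 8.14% for genes lower by the adjusted p alone. The E-box CACGTG was in 3.23% of the melanocytic windows. By the adjusted p alone it was in 11.3% of the windows of lower genes and 7.12% of those of higher genes, against 8.99% for tested genes. The GC box GGGCGG was in 56.2% of the windows of those higher genes, in 68.2% of the windows of genes lower by the adjusted p alone, and in 64.6% of the windows of all tested genes. A match is a run of letters and not a shown binding site.

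Genes of the Gq and MAPK cascade divided, with 13 lower and 4 higher of 26 tested and a median difference of -0.26. Of all genes, 14.6% were lower and 21.0% higher. MYC was at 102 and 101 CPM in the control, 118 and 121 CPM with romidepsin and 62.0 and 61.8 CPM with quisinostat, a difference of -0.95 ± 0.07 (SE) (adjusted p = 8.68e-05, edgeR). RASGRP3, the exchange factor that links Gq signals to RAS in UM, had 138 and 133 CPM in the control, 137 and 138 CPM with romidepsin and 75.2 and 75.4 CPM with quisinostat, a difference of -0.87 ± 0.07 (SE). GNAQ and PRKCE, a protein kinase C, were lower, with differences of -0.44 and -0.61, while GNA11 was not called (interval -0.20 to 0.15). The feedback phosphatases DUSP5 and DUSP6 were lower, with differences of -0.78 and -0.43, and the feedback inhibitors SPRY1 and SPRY2 were higher, by 0.62 and 0.67.

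Immediate early genes held 9 lower and 1 higher of 18 tested, against 14.6% and 21.0% of all genes, with a median difference of -0.31. Beside FOS, NR4A1, an orphan nuclear receptor, rose with romidepsin from 96.2 and 87.5 to 182 and 187 CPM and was at 82.9 and 78.2 CPM with quisinostat, a difference of -1.20 ± 0.08 (SE). EGR1 had 72.3 and 75.9 CPM with romidepsin and 42.0 and 44.3 CPM with quisinostat, EGR3 10.99 and 13.5 CPM with romidepsin and 5.32 and 5.09 CPM with quisinostat and JUN 188 and 186 CPM with romidepsin and 133 and 129 CPM with quisinostat, with differences of -0.78, -1.24 and -0.52. EGR2 had risen with both drugs, from 0.709 and 0.840 to 4.60 and 4.30 CPM with romidepsin and 3.36 and 3.12 CPM with quisinostat, and did not pass the direct test (interval -0.83 to -0.09). KLF4 was the higher member, by 0.35.

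Cell-cycle genes lay mostly below the control with both drugs, with median log2 changes of -0.74 and -0.94 for replication and -0.71 and -1.07 for mitosis with romidepsin and quisinostat. Of 47 DNA replication genes, 25 were lower with quisinostat than with romidepsin and 1 higher, with a median difference of -0.32. Of 40 mitosis genes, 24 were lower and 1 higher, with a median of -0.34. Over all genes 14.6% were lower and 21.0% higher. None of the replication or mitosis genes passed both thresholds. Their levels bear on the reading. Of 11 replication genes over 100 CPM in the control 8 were lower, and of 8 mitosis genes 6 were, against 34.0% of all genes at that level. Between 10 and 100 CPM, 16 of 33 replication genes and 18 of 32 mitosis genes were lower, against 18.0%. RRM2, the ribonucleotide reductase subunit, went from 169 and 178 CPM in the control to 64.7 and 62.5 with romidepsin and 29.5 and 28.0 with quisinostat, a difference of -1.14 ± 0.08 (SE). CDC45, a helicase factor, had 5.53 and 4.48 CPM with romidepsin and 1.93 and 2.04 CPM with quisinostat, and MCM7, a subunit of that helicase, 48.6 and 47.4 CPM with romidepsin and 22.3 and 25.1 CPM with quisinostat, with differences of -1.33 and -1.02. MYBL2, a driver of late cell-cycle genes, was at 12.4 and 12.3 CPM with romidepsin and 5.38 and 5.25 CPM with quisinostat, a difference of -1.21, and FOXM1 at 62.3 and 70.8 CPM with romidepsin and 37.1 and 33.5 CPM with quisinostat, a difference of -0.91.

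The direct test was not passed by all members. CCNB1, the mitotic cyclin, had fallen with both drugs, from 69.8 and 71.9 CPM to 46.5 and 45.0 CPM with romidepsin and 44.7 and 44.8 CPM with quisinostat, and was not called (direct interval -0.19 to 0.13). KIF11, a spindle motor, was at 96.2 and 115 CPM in the control, 69.0 and 73.4 CPM with romidepsin and 102 and 107 CPM with quisinostat, a difference of 0.55, and was the 1 mitosis gene higher with quisinostat. Of 21 CDK inhibitors and G1 cyclins 6 were higher and 7 lower, against 21.0% and 14.6% of all genes (median difference -0.15). CDKN1A (p21), which HDAC inhibitors often induce, was lower with quisinostat, at 312 and 271 CPM in the control, 309 and 336 CPM with romidepsin and 227 and 200.5 CPM with quisinostat, a difference of -0.59 (adjusted p = 0.0041, edgeR), whereas CDKN1B, CDKN1C and CDKN2C were higher, by 0.54, 1.14 and 0.55. CDK2 was lower, with a difference of -0.84, and CCND1, the abundant D-type cyclin of this line, was at 1346 and 1398 CPM with romidepsin and 1024 and 982 CPM with quisinostat, a difference of -0.45.

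Of 15 tested BCL2-family genes 1 was higher and 4 lower, against 21.0% and 14.6% of all genes. Their median difference was -0.06, or 0.07 with library size alone. BMF, a pro-apoptotic BH3-only protein, was at 32.0 and 35.9 CPM in the control, 38.7 and 34.6 CPM with romidepsin and 75.0 and 77.9 CPM with quisinostat, a difference of 1.06 ± 0.10 (SE) (adjusted p = 0.000248, edgeR). The lower ones were the protective genes BCL2 (95.7 and 94.2 CPM with romidepsin and 60.0 and 65.1 CPM with quisinostat), MCL1 (242 and 228 CPM with romidepsin and 169 and 166 CPM with quisinostat) and BCL2L2, with differences of -0.60, -0.49 and -0.48, and the pro-apoptotic BCL2L11, with a difference of -0.41. BCL2 was higher with romidepsin than in the control (log2 0.35, adjusted p = 0.013, edgeR). Of 20 p53 targets 8 were lower and 1 higher, against 14.6% and 21.0% of all genes (median difference -0.19). GDF15, a stress cytokine, rose with romidepsin from 102 and 133 to 311 and 292 CPM and was at 152 and 161 CPM with quisinostat, a difference of -0.95 ± 0.12 (SE).

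Antigen presentation and interferon genes held few called members. Of 18 genes for MHC class I presentation none was higher and 3 were lower, against 21.0% and 14.6% of all genes. The median difference of -0.02 turned to 0.11 with library size alone and 0.02 with upper-quartile factors. Among the lower genes was the peptide trimmer ERAP1, at 67.8 and 60.6 CPM with romidepsin and 39.3 and 37.9 CPM with quisinostat, a difference of -0.73. B2M, the invariant light chain of class I molecules, was not called, at 344 and 334 CPM with romidepsin and 345 and 356 CPM with quisinostat (interval -0.17 to 0.27). Of 28 interferon-stimulated genes 1 was higher and 2 lower, against 21.0% and 14.6% of all genes, and 25 were not called. Their median difference was -0.12, or 0.01 with library size alone. The largest difference was that of the GTPase GBP2, at 0.248 and 0.329 CPM in the control, 1.75 and 2.03 CPM with romidepsin and 8.61 and 8.88 CPM with quisinostat, a difference of 2.21 ± 0.18 (SE). The others called were IFIT3 and DDX58, with differences of -0.72 and -0.57.

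Heat shock chaperones held 7 lower and no higher genes of 24, with a median difference of -0.21. Of the 21 members over 100 CPM in the control, 5 were lower, a smaller share than the 34.0% of all genes at that level, and the largest differences were those of BAG3 and HSPH1, at -0.62 and -0.45. HSP90AB1, a cytosolic HSP90, was at 1699 and 1635 CPM with romidepsin and 1315 and 1328 CPM with quisinostat, a difference of -0.34, a call that was lost with library size alone (adjusted p = 0.135, edgeR) and with the replicate block (adjusted p = 0.0511, edgeR). Of 20 genes of the ATF4 and unfolded protein responses 3 were higher and 1 lower, against 21.0% and 14.6% of all genes. Their median difference of -0.02 turned to 0.11 with library size alone and 0.03 with upper-quartile factors. The largest difference was that of ASNS, asparagine synthetase, at 37.2 and 39.6 CPM with romidepsin and 67.4 and 61.6 CPM with quisinostat, a difference of 0.75, and the lower gene was CHAC1, a glutathione-degrading enzyme, with a difference of -0.68. HSPA5, the sentinel of the unfolded protein response, was at 921 and 760.0 CPM with romidepsin and 765 and 886 CPM with quisinostat (interval -0.47 to 0.42). Among 17 ABC transporters, 3 were higher and 4 lower, against 21.0% and 14.6% of all genes, with a median difference of 0.03. Of 5 tested metallothioneins (median difference 0.33) MT1F alone was called, higher by 0.95, where 21.0% of all genes were higher.

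Sterol synthesis genes were mostly lower with quisinostat. Of 22 genes 13 were lower and 1 higher, against 14.6% and 21.0% of all genes, with a median of -0.43. Romidepsin alone left the list near the control (median log2 change 0.03). HMGCS1, which makes HMG-CoA, had 301 and 322 CPM in the control, 398 and 379 CPM with romidepsin and 212 and 203 CPM with quisinostat, a difference of -0.91 ± 0.08 (SE) (adjusted p = 0.000181, edgeR). SQLE, squalene epoxidase, and INSIG1, a brake on the pathway, had differences of -0.69 and -0.49. SREBF2, the transcription factor of the pathway, was at 255 and 239 CPM with romidepsin and 173 and 194 CPM with quisinostat and did not pass the test (adjusted p = 0.0644, edgeR). TM7SF2, a sterol reductase, was the higher member, by 0.68.

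In the panel of genes that separates low-risk class 1 from high-risk class 2 UM, with PRAME, 6 of 13 were higher and 1 lower. Over all genes 21.0% were higher and 14.6% lower, and the median difference of the panel was 0.33. HTR2B, a serotonin receptor that is high in class 2 tumours, was at 376 and 522 CPM in the control, 443 and 448 CPM with romidepsin and 215 and 239 CPM with quisinostat, a difference of -0.97 ± 0.15 (SE) (adjusted p = 0.00199, edgeR). ROBO1, a guidance receptor low in class 2, had 3.67 and 3.65 CPM with romidepsin and 11.2 and 11.8 CPM with quisinostat, a difference of 1.65, and SATB1, LTA4H and ID2 were higher by 1.28, 0.83 and 0.86. ID2 had fallen with romidepsin, from 83.3 and 69.6 to 45.9 and 48.6 CPM, and was at 87.8 and 83.2 CPM with quisinostat. LMCD1 had risen with both drugs and was not called in the direct test (interval -0.11 to 0.57), and PRAME was low and not called (interval -1.16 to 0.01).

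Of 15 tested epithelial and mesenchymal genes 4 were higher and 2 lower, against 21.0% and 14.6% of all genes. Their median difference was -0.10, or 0.03 with library size alone. VIM, the mesenchymal filament vimentin, had 3779 and 3724 CPM with romidepsin and 2444 and 2325 CPM with quisinostat, a difference of -0.65, and the splicing factor ESRP1 a difference of -0.86, while the low keratin genes KRT8 and KRT18 were higher by 1.22 and 1.13. Of 13 tested genes often used as references (median difference -0.16) 3 were lower with quisinostat, all of them among the 10 over 100 CPM in the control, where 34.0% of all genes were lower. They were TFRC, ACTB and YWHAZ, with differences of -1.003, -0.58 and -0.38, the last lost with library size alone (adjusted p = 0.0832, edgeR), while GAPDH was not called (interval -0.47 to 0.15).

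A response signature of HDAC inhibitors from other cell lines, which the study took from a public resource and which was built with romidepsin among its drugs, had a median near 0 for the genes that it has as raised. The study's table signs 79 genes as raised and 101 as lowered. Of the first, 78 were tested, and 24 were higher and 17 lower with quisinostat than with romidepsin, with a median difference of -0.0028, or 0.13 with library size alone and 0.04 with upper-quartile factors. Of 100 that it has as lowered, 6 were higher and 28 lower, with a median of -0.17. Both groups can be set beside the shares of 21.0% and 14.6% for all genes.

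For many genes the drugs were alike within a stated margin. The 95% interval of the difference lay inside ±0.5 on the log2 scale for 5140 genes (34.1%), of which 382 were nevertheless called by the adjusted p. Of the 9718 genes not called, 4758 had such an interval, and the other 4960 had intervals that reached the margin, so for these a difference of that size was not excluded. The median distance from the difference to either end of its interval was 0.309.

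One pair of near-identical genes, NXF2 and NXF2B, was called in opposite directions, and it was looked at after its values were seen. NXF2 held 0 counts in both romidepsin libraries and 541 and 489 with quisinostat, while NXF2B held 181 and 184 with romidepsin and 12 and 20 with quisinostat. The control libraries split the same way against each other, with 111 and 0 counts for NXF2 and 3 and 127 for NXF2B. The sum of both was 114 and 127 in the control, 181 and 184 with romidepsin and 553 and 509 with quisinostat. How reads were shared between the copies differed between libraries of 1 group, so the single-gene calls are uncertain and the sum is the safer value. The read-through names RPS10-NUDT3 and POC1B-GALNT4, among the 27 lower genes, share exons with their component genes, so their counts are uncertain too, and this was not tested.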

How the data were processed

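RNA of MP38 cells was sequenced as paired-end, strand-specific mRNA libraries, 2 each for 4 groups. The authors processed the reads with BioJupies and deposited raw read counts per gene symbol, not normalised and not pooled. Per the submitters' processing notes the genome build was hg38. The aligner, the annotation and the strand setting of the counting are not given in the sources used here. The other 2 deposited tables, log10(CPM + 1) values and quantile-normalised values made from the same counts, were not used. Libraries held 28483235 to 29359024 counts.

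Groups came from the labels. Genes were filtered with filterByExpr (15085 of 35238 kept), TMM factors were computed, and edgeR's quasi-likelihood test was fitted to all 8 libraries, with the contrast quisinostat minus romidepsin and Benjamini-Hochberg adjustment over all tested genes. The biological coefficient of variation was 0.0938 and the median total degrees of freedom 8.44, of which 4.44 came from the prior. Log2 CPM values used a prior count of 2. Intervals at 95% come from the same fit, cover only the spread between these wells and are not adjusted over genes. Fold bounds against libraries at or under the floor used 3 counts per library and cover counting error only. Calls needed an adjusted p below 0.05, alone or with a log2 difference beyond 1.5. Named genes were the 10 largest differences each way among genes past both thresholds whose log2 CPM averaged at least 3, the 5 largest each way among called genes that had passed in opposite directions against the control, the 11 HDAC genes, and members of 36 written lists, with the study's 2 signature lists given as counts. Some list members carry their difference or interval without the value in each library, and some named by the rule are not reported here. The members and lists were chosen with earlier results of these data known. Gene positions came from GENCODE release 29, in which 94.8% of tested symbols had 1 entry, and promoter windows from RefSeq (GRCh38.p14). On simulated counts with this design, edgeR called 94% of 100 genes changed by a log2 of 1 and 99% of 100 changed by a log2 of 2, with 10 false calls among 15085 genes. The changed genes lay above 1 CPM with romidepsin and went up and down in equal numbers. The simulation therefore does not cover changes in lower genes, or many changes mostly in 1 direction. Alternatives were DESeq2, limma-voom, other scalings and filters, fewer libraries and a replicate block. Versions were R 4.3.3, edgeR 4.0.16, limma 3.58.1, DESeq2 1.42.0, Python 3.11.15, pandas 2.3.3, numpy 2.4.6 and matplotlib 3.10.9.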

Additional observations from a re-analysis of the deposited data

How the results depend on the processing

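Bulk RNA of 2 wells per drug limits all results. Against 816 genes higher and 27 lower past both thresholds and 3167 and 2200 by the adjusted p alone, a mean CPM of at least 5 gave 121 and 9 past both thresholds and 2001 higher by the adjusted p, since it tested fewer low genes. Library size alone gave 1298 lower by the adjusted p, and a fit to only the 4 libraries gave 3545. Leaving out each library in turn gave 591 to 897 higher and 22 to 34 lower past both thresholds and 1686 to 3961 higher and 1077 to 3333 lower by the adjusted p. The counts by the adjusted p moved by over 1.5 times without either quisinostat library (1738 and 1686 higher, 1077 and 1204 lower) or either romidepsin library (1819 and 1847 higher, 1087 and 1162 lower), where the lone sample was assumed to vary like the other groups, and without control 1 (3333 lower). DESeq2 gave 674 and 26 past both thresholds and limma-voom 820 and 28.

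Replicates 1 and 2 share only a number between groups, and the correlation of their deviations between romidepsin and quisinostat was -0.12. The replicate block gave 788 and 27 calls past both thresholds and 3065 and 2173 by the adjusted p, and of the 163 genes given with values 2 lost their call, HDAC2 and HSP90AB1. Crossing the numbers within the 4 libraries, chosen after seeing the data, gave 828 and 34 calls and 4606 and 4576 by the adjusted p, against 814 and 32 and 3295 and 2798 with the numbers as labelled in the same libraries.

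Of 1283 values of these genes under the other settings, 1226 kept their direction and side of the threshold, 30 lost a call, 12 gained one and 15 changed sign, all 15 from uncalled values near 0. Library size alone ended 10 calls (BCL2L11, CREBBP, EZH2, HDAC2, HDAC4, HDAC7, HSP90AB1, MBP, PAX3 and YWHAZ), and DESeq2 ended those of H2AFY2, HDAC11, KLF4, KRT8 and SOX9. BAP1 passed in 5 of these settings and also without either control library, higher with quisinostat. Leaving out a library ended a call in 112 of 1304 values and changed the sign of 8. Library size alone raised every list median by 0.128 to 0.129, and over all settings other than leaving out a library 56 of 192 list medians moved by more than the spread between libraries without changing sign, as did 34 of 256 without 1 library. The sign changed with library size alone for CCNB1 (0.0967), GNA11 (0.10), GPNMB (0.00725), HDAC3 (0.10), HDAC5 (0.0727) and HSPA5 (0.10), and for the medians of class I HDACs (0.0458), co-repressor complexes (0.0339), acetyltransferases and readers (0.0576), the BCL2 family (0.0700), class I presentation (0.11), interferon (0.0121), ATF4 (0.11), epithelial and mesenchymal (0.0266) and raised signature genes (0.13). With upper-quartile factors it changed for CCNB1 (0.0141), GNA11 (0.0215), HDAC3 (0.0192), HSPA5 (0.0193), class I presentation (0.0241), ATF4 (0.029) and raised signature genes (0.0426). With a mean CPM of at least 5 it changed for CCNB1 (0.00478), GNA11 (0.0117), HDAC3 (0.00963), HSPA5 (0.0109), class I presentation (0.0151), ATF4 (0.0196) and ABC transporters (-0.14). With only the 4 libraries it changed for HDAC9 and the median of its class (-0.00357 for both) and for ABC transporters (-0.0107). Without 1 library the sign was not fixed for B2M (-0.00744 to 0.0673), GNA11 (-0.0795 to 0.0215), HDAC9 and the median of its class (-0.00418 to 0.0365), HSPA5 (-0.17 to 0.11), SV2A (-0.0666 to 0.22) and TYR (-0.11 to 0.13), or for the medians of the BCL2 family (-0.21 to 0.0363), class I presentation (-0.0754 to 0.0388), ATF4 (-0.0593 to 0.0402), ABC transporters (-0.13 to 0.10) and raised signature genes (-0.0414 to 0.0236). The causes were not tested.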
